A study of Mus musculus with 9 samples.

Results

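The nuclear-encoded subunits of the mitochondrial oxidative phosphorylation system were followed across the arrays of mouse olfactory mucosa. Members were the probes whose annotated symbol begins with Ndufa, Ndufb, Ndufc, Ndufs, Ndufv, Sdh (a to d), Uqcr, Cox4 to Cox8 or Atp5, without the Ndufaf assembly factors. The rule found 86 of 26423 probes, and the probe with the highest mean over the 9 arrays stood for each gene. This gave 77 genes of 23631 features: 35 of complex I, 4 of complex II, 7 of complex III, 17 of complex IV and 14 of complex V. Complexes were set by symbol, so Ndufa4, which is now placed in complex IV, is counted here in complex I, and Uqcrh-ps1 is annotated as a pseudogene. The genes were taken by symbol, with no cut-off on a measured value, but the list was drawn up with earlier results of these data known.

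RNA came from the olfactory mucosa of male C57BL/6 mice aged 6 to 8 weeks, and each array carried 1 sample. Control mice received saline for 2 weeks. D1 mice received dexamethasone, a synthetic glucocorticoid, for 1 day, and WK2 mice received it daily for 2 weeks, intraperitoneally at 1 mg/kg. D1 and control therefore also differed in the length of the injections. Of 27 mice, 9 per group, 3 samples per group were put on arrays, and these had been picked for their expression of olfactory marker protein. Whether the 3 arrays of a group hold RNA of 3 different mice is not stated, and p-values then cover just the scatter among these arrays, possibly technical. The tissue is a mixture of cell types, and a change in the number of cells of a type cannot be told apart from a change in RNA per cell.

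Oxidative phosphorylation makes most of the ATP of an aerobic cell. Complexes I and II pass electrons from NADH and succinate to ubiquinone, complex III passes them on to cytochrome c, and complex IV passes them to oxygen. Complexes I, III and IV pump protons across the inner mitochondrial membrane, and complex V, the ATP synthase, uses the return flow. Most subunits are encoded in the nucleus, and several subunits of complexes IV and V exist as isoforms from separate genes, some of them typical of heart and skeletal muscle or of testis. In the olfactory mucosa, sensory neurons, supporting cells and ciliated cells all hold mitochondria.

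Stretches upstream of 5 subunit genes are shown as examples from complexes I, II and IV. Cox8b and Cox8a encode isoforms of the same complex IV subunit, Ndufs5 is a complex I gene, and Sdhd and Sdha encode an anchor and the catalytic subunit of complex II. They were chosen after the values were seen. Each is the 150 bases before the RefSeq start site in GRCm38.p6, 5′ to 3′ on the minus strand, and capitals mark a match to NRF-1 (GCGCA, any base, GCGC) or ETS (CCGGAAG) on either strand.
Cox8b: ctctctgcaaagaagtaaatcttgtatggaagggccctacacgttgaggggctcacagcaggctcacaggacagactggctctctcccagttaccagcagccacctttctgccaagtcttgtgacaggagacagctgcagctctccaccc
Cox8a: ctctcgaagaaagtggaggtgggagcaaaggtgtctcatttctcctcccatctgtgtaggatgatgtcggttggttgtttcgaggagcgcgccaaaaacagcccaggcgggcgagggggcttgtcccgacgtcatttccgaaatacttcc
Ndufs5: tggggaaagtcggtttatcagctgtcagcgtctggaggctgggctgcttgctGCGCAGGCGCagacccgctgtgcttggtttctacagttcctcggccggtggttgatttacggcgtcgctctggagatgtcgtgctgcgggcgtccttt
Sdhd: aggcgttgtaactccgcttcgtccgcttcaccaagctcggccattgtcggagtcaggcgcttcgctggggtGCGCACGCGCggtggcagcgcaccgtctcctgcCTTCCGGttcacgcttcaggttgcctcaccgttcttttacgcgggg
Sdha: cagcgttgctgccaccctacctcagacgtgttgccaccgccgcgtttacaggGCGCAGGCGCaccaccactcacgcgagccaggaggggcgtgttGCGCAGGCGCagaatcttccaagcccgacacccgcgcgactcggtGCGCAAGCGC
They lie at chr7:140900447-140900596, chr19:7217617-7217766, chr4:123718187-123718336, chr9:50603850-50603999 and chr13:74350241-74350390 in the same order. NRF-1 and the ETS factor GABP are known regulators of respiratory genes. The Sdha stretch holds 3 NRF-1 matches, those of Sdhd and Ndufs5 1 each, and the Sdhd stretch 1 ETS match. The stretches of Cox8b and Cox8a hold no match, while the window of Cox8a that runs to 50 bases past the start holds 2 ETS matches.

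RefSeq windows of 300 bases, from 250 before to 50 after a start, were found for 62 of the 77 genes, 66 windows in all. The NRF-1 letters were in 24.2% of these windows and in 4.60% of all 32851 windows. The ETS letters were in 19.7% against 8.86%, the YY1 letters AAGATGG in 12.1% against 6.34%, and the letters TATAAA in 12.1% against 13.6%. The median GC content was 57.3% in the windows of the subunit genes and 52.7% in all windows. A match is a description of the letters and not a binding site, and the motifs do not overlap in the stretches printed.

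Array medians were 1202 to 1447 intensity units, and 8 to 18 probes per array lay below 0. The third WK2 array stood apart. Its mean intensity was 8726 against 7203 to 7627 on the other arrays, and it held 634 probes above the 16-bit maximum of 65535 against 399 to 460. The medians of WK2 are therefore given with and without it, as are single genes whose difference it moved by over 1.5 times. Omp, the marker of mature olfactory neurons used to pick the samples, ranged from 300267 to 540038, and Cyp2g1, a sustentacular cell enzyme, from 373325 to 677700, as the labelled tissue would hold. The subunit probes were among the bright ones: 51 of the 77 had a mean above 14 on the log2 scale, and their median rank among all features was 980. Their summed intensity was 1.86% to 2.00% of the array total in control and 1.89% to 2.01% in D1. It was 2.11% and 2.05% on the first and second WK2 arrays and 2.66% on the third.

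D1 set against control addresses a single day of the hormone. No subunit gene passed the test. Of the 77 genes 44 lay above control and 33 below, with a median log2 difference of 0.03, beside 0.03 over all features, of which 56.6% lay above. The median was -0.02 with the arrays centred on their medians. The limma test called 0 of the 77 at an adjusted p under 0.05, as it did 0% of all features, and 0 had an unadjusted p under 0.05, which 2.00% of all features had (1.18% higher and 0.821% lower). By complex the medians were 0.02 for I, -0.14 for II, 0.01 for III, 0.08 for IV and 0.05 for V.

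Among the members with the smallest p in D1, Cox4i2, a complex IV isoform known for its response to oxygen, stood at 431, 636 and 514 in control and at 565, 270 and 282 in D1. The second and the third D1 arrays lay below all controls and the first did not, and the difference was -0.50 ± 0.29 (SE, limma). Atp5d, the delta subunit of the ATP synthase stalk, differed by -0.47, and the complex I genes Ndufb5 and Ndufa11 by -0.37 each. On the higher side, Cox8c, known as a testis isoform, differed by 0.40, Cox7b2, known from testis as well, by 0.29, Atp5md by 0.29, Ndufa7 by 0.26 and Cox8a by 0.23. None of these passed, with adjusted p = 1.00 for each (limma). In complex II, Sdha lay at 0.03 (-0.02 with the arrays centred on their medians) and Sdhb at -0.20, and in complex III Uqcr11 lay at 0.13 and Uqcrc2 at -0.27. The groups did not overlap for Cox8a and Cox7a2l, both higher, where 4.92% of all features did so, and for Uqcrc2, lower, where 5.19% did.

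WK2 set against control addresses daily treatment over 2 weeks. By group means most subunit genes lay above control in all 5 complexes, but no single gene passed the test. In complex II, 2 of the 4 genes lay above control without the third WK2 array. Of the 77 genes 64 lay above control and 13 below, where 62.7% of all features lay above. The median log2 difference was 0.38, beside 0.14 over all features. Without the third WK2 array 57 lay above control, beside 60.2% of all features, and the median was 0.19. It was 0.24 with cyclic loess, 0.22 with array weights and 0.18 with quantile normalization, while the median over all features under quantile normalization was 0.01.

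The limma test called 0 of the 77 genes in WK2 against control, beside 1.61% of all features, with 0.0578 as the smallest adjusted p. Before adjustment, 24 genes were higher and 1 was lower at p under 0.05, 32.5% of the 77, beside 29.7% of all features (17.3% higher and 12.4% lower). The WK2 values all lay above the control values in 34 genes, 44.2% of the 77, where 23.8% of all features did so. They all lay below in 1 gene, where 13.8% of all features did. Without the third WK2 array 16 of the 77 had an unadjusted p under 0.05, beside 22.7% of all features.

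On single arrays the median deviation of the 77 genes from the control mean was 0.06, 0.02 and -0.06 in control, and 0.08, 0.00 and -0.01 in D1. It was 0.19, 0.17 and 0.74 on the 3 WK2 arrays. The third WK2 array was the highest, and the other 2 lay above every control and D1 array. Of the 77 genes, 62, 60 and 65 lay above the control mean on these arrays. By complex, the median differences were 0.40 for I, 0.21 for II, 0.42 for III, 0.40 for IV and 0.27 for V. Without the third WK2 array they were 0.17, -0.01, 0.19, 0.30 and 0.14. Complex II rests on 4 genes, and its median changed sign without that array. Only in complex IV did the first and second WK2 arrays, at 0.32 and 0.27, both lie above every control array. In complex I the second WK2 array lay at 0.15 and the second control array at 0.16, and in complex III at 0.01 and 0.12. In complex II the first and second WK2 arrays lay at -0.07 and 0.13, and the second control array at 0.15. In complex V the first WK2 array lay at 0.11 and the first control array at 0.12.

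**Figure D1:**
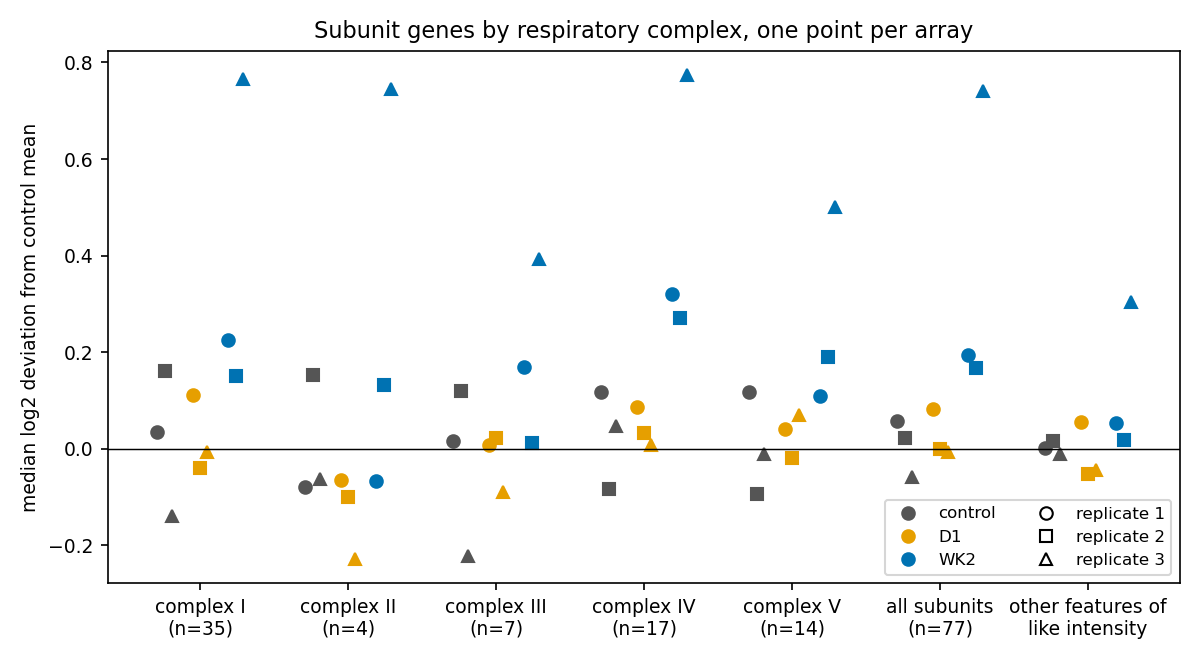
Each point is 1 array: the median, over the subunit genes of a complex, of the log2 deviation from the control mean. The first and second WK2 arrays lie near 0.2 over all 77 genes and the third at 0.74, and the last column gives the other features of like intensity, matched gene by gene, on the same scale.

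Since the differences varied with brightness, each gene was set beside the features nearest to it in mean log2 intensity, 100 dimmer and 100 brighter where there were as many, an alternative chosen after the data were seen. These neighbours had a median difference of 0.19 in WK2 against control, and 55 of the 77 genes lay above their own neighbours, by a median of 0.18. Without the third WK2 array the neighbours lay at 0.04, and 52 of 77 lay above them, by a median of 0.09. The wider band of 10037 other features between the members' lower and upper quartile of intensity, 2163 to 74696, had a median of -0.02. The distance of the subunit genes from other features thus depended on which features of like intensity were taken. In D1 the neighbours lay at -0.01 and 38 of 77 genes lay above them.

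**Figure D2:**
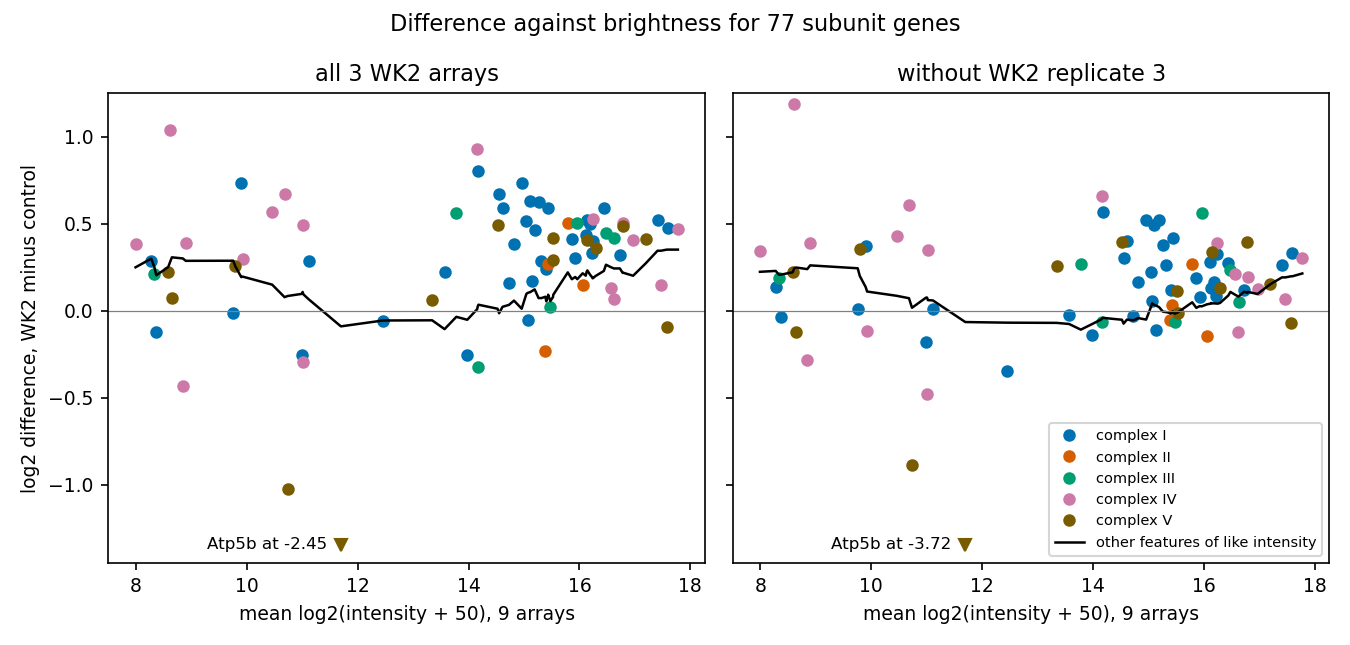
Log2 difference of WK2 minus control for each of the 77 subunit genes against its mean log2 intensity, with all 3 WK2 arrays and without the third. The line gives the median of the features of like intensity, and 55 genes lie above it on the left and 52 on the right.

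The gap to other features varied along the scale. Between 14 and 15 on the log2 scale, where 9 subunit genes lie, their medians on the 3 WK2 arrays were 0.33, 0.41 and 0.98. The 1511 other features in this range had -0.03, -0.09 and 0.11. Between 17 and 20, with 6 subunit genes and 134 others, the values were 0.23, 0.19 and 0.79 against 0.22, 0.24 and 0.54. The subunit genes thus stood above others on all 3 arrays between 14 and 15, and between 17 and 20 on the third array but not on the second. From 15 to 16 and from 16 to 17, with 18 subunit genes each, they stood above others on all 3 arrays. From 15 to 16 the values were 0.15, 0.18 and 0.75 against 0.02, -0.02 and 0.33. In this range control replicate 2 had 0.24 against 0.04, a gap of like size to those of WK2 replicates 1 and 2. Control replicates 1 and 3 had 0.01 and -0.21 against -0.02 and -0.02. From 10 to 12, with 8 subunit genes, the values on the WK2 arrays were 0.19, -0.35 and 0.44 against 0.08, -0.01 and 0.09. From 8 to 10, with 12, they lay below others on the first and second arrays. These ranges hold under 20 subunit genes each, and their borders were chosen after the data were seen.

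**Figure D3:**
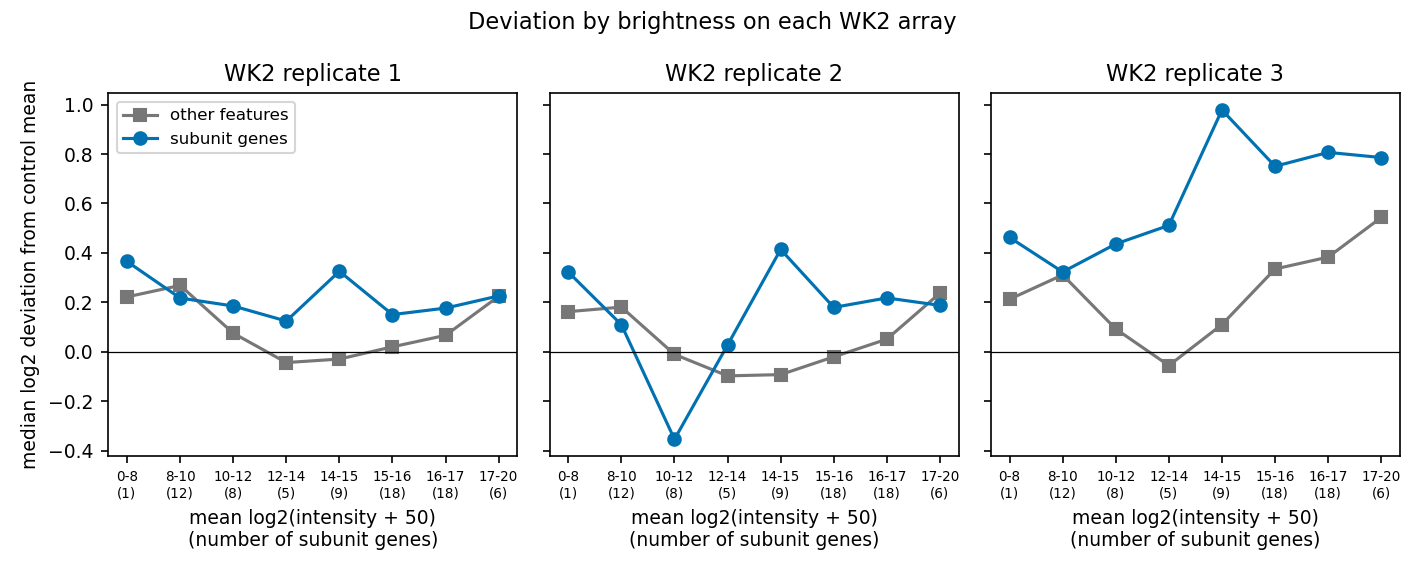
Median log2 deviation from the control mean on each WK2 array, for subunit genes and other features in ranges of mean log2 intensity, with the number of subunit genes under each range. On the third array the other features lie at 0.11 between 14 and 15 and at 0.54 above 17, while the subunit genes lie at 0.98 and 0.79 in these ranges.

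Complex I takes electrons from NADH through flavin and iron-sulfur cofactors held by its core subunits. Of its 35 genes 29 lay above control in WK2 and 0 passed the test (limma), where 62.7% and 1.61% of all features did. At an unadjusted p under 0.05 were 13 (37.1%), all higher, beside 29.7% of all features (17.3% higher and 12.4% lower). Ndufs8, a core iron-sulfur subunit, stood at 16140, 17885 and 12876 in control, 14350, 15488 and 15298 in D1, and 23530, 22535 and 37506 in WK2. All WK2 values lay above all others, with the third array the highest. The log2 difference was 0.80 ± 0.21 (SE), a 1.75-fold level, with an adjusted p of 0.0645, and 0.57 without the third WK2 array. It passed under quantile normalization (adjusted p = 0.0395, limma), with array weights (0.0226) and without the dimmest 50% of features (0.0433), and its adjusted p ranged up to 0.153 over the alternatives.

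Ndufa2, an accessory subunit, stood at 25064, 29135 and 22061 in control, 34431, 28854 and 27536 in D1, and 35923, 36784 and 56565 in WK2. The WK2 values lay above all others, by little over the first D1 array. The difference from control was 0.74 ± 0.20 (adjusted p = 0.0697, limma), and 0.52 without the third WK2 array. It passed under the same 3 alternatives as Ndufs8, at adjusted p = 0.0409, 0.0256 and 0.0484. Ndufb2 differed by 0.59, with all WK2 values above all controls.

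The other core genes of complex I were mixed. Ndufv2, which carries an iron-sulfur cluster, stood at 718, 782 and 696 in control and at 935, 988 and 2104 in WK2. The groups did not overlap, but the third WK2 array was over the others, and the difference was 0.74 ± 0.28, or 0.37 without it. Ndufs1 differed by 0.38 (0.17 without that array) and Ndufv1, the NADH-binding subunit, by 0.28. Ndufs3 lay at -0.25 but at 0.11 with array weights, and Ndufs7 at -0.05 but at 0.17 with array weights and 0.06 without the third WK2 array. Ndufa8 had the lowest difference of the complex, -0.25 (-0.14 without the third WK2 array). Ndufa4 differed by 0.48, while its paralog Ndufa4l2, known to be induced by low oxygen, lay at -0.12 (-0.04 without that array).

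Complex II is succinate dehydrogenase, which is also an enzyme of the tricarboxylic acid cycle. Sdhd, a membrane anchor whose upstream stretch is printed above, stood at 56110, 48124 and 50702 in control, 46963, 48187 and 49036 in D1, and 58930, 65363 and 101587 in WK2. The WK2 values lay above all others, the lowest of them close to the highest control. The difference was 0.50 ± 0.20 (adjusted p = 0.131, limma) and 0.27 without the third WK2 array. The flavoprotein Sdha, with 3 NRF-1 matches upstream, differed by 0.27 and by 0.03 without that array. The iron-sulfur subunit Sdhb lay at 0.15, but at -0.15 without that array and at -0.03 under quantile normalization. The other anchor, Sdhc, lay at -0.23 (-0.05 without the third WK2 array), with the second control array at 70009 against 37113 and 39942, and at 0.05 without that control.

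Complex III passes electrons from ubiquinol to cytochrome c through the Rieske protein, encoded by Uqcrfs1. This gene stood at 56194, 69084 and 46559 in control, 54156, 58792 and 57965 in D1, and 80520, 86730 and 74244 in WK2. All WK2 values lay above all others, and here the third array was the lowest of them. The difference was 0.51 ± 0.17 (adjusted p = 0.0928, limma), 0.56 without that array, and it passed with array weights (adjusted p = 0.0214), with adjusted p up to 0.270 over the alternatives. Uqcr11 had the highest difference, 0.56, with overlapping groups and the third WK2 array at 26627 against 13413 and 15352 (0.27 without it). The core proteins differed in sign, with Uqcrc2 at 0.42 (0.05 without the third WK2 array) and Uqcrc1 at -0.33 (-0.06 without it).

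Complex IV, cytochrome c oxidase, reduces oxygen. Of its 17 genes 15 lay above control in WK2 and 0 passed the test (limma), where 62.7% and 1.61% of all features did. At an unadjusted p under 0.05 were 6 (35.3%), all higher, beside 29.7% of all features (17.3% higher and 12.4% lower). For 11 of the 17 (64.7%) all WK2 values lay above all controls, where 23.8% of all features did so. Cox8b, the heart and skeletal muscle isoform of the smallest nuclear subunit, stood at 16882, 13240 and 14269 in control, 15626, 13740 and 14406 in D1, and 23216, 23408 and 40738 in WK2. The WK2 values lay above all others, with the third array the highest. The difference was 0.93 ± 0.22, a 1.90-fold level, with the smallest adjusted p of the 77 genes, 0.0578 (limma), and 0.66 without the third WK2 array (adjusted p = 0.0815). It passed with array weights (adjusted p = 0.0268), under quantile normalization (0.0294), without the dimmest 50% of features (0.0372), with cyclic loess (0.0449) and without the first WK2 array (0.0475), and its adjusted p ranged up to 0.148 over the alternatives.

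Cox8a, the isoform found in most tissues, stood at 199840, 176335 and 197763 in control, 225051, 229693 and 215490 in D1, and 241534, 229242 and 334046 in WK2. Both treated groups lay above control. The difference from control was 0.47 in WK2 (0.30 without the third array) and 0.23 in D1. Cox8c stood at 291, 170 and 243 in control, 214, 471 and 317 in D1, and 441, 780 and 418 in WK2. Its WK2 values lay above control but not above D1, and the difference from control, 1.04 ± 0.30 (adjusted p = 0.0733, limma), passed only with array weights (0.0470) among the alternatives, over which its adjusted p reached 0.175. The difference between isoforms was not tested.

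Other muscle-type isoforms also lay above control. Cox6a2 stood at 1585, 947 and 1485 in control, 1469, 1619 and 1291 in D1, and 1917, 2136 and 2297 in WK2. The WK2 values lay above all others, and the difference was 0.67 ± 0.20 (adjusted p = 0.0786, limma) and 0.61 without the third WK2 array. Cox7a1 differed by 0.57, its widely expressed counterpart Cox7a2 by 0.40 (0.12 without the third WK2 array), and Cox7a2l, which takes part in joining complexes III and IV into supercomplexes, by 0.53 (adjusted p = 0.0758). A dimmer probe of Cox7a2 gave 1.49 against control (adjusted p = 0.0584 over all probes, limma) beside 0.40 on the brighter one. Cox6a1, the counterpart of Cox6a2, lay at 0.15, but at -0.11 under quantile normalization, -0.07 with cyclic loess and 0.07 without the third WK2 array.

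Skeletal muscle markers were read beside these isoforms. Of 14 measured, 11 lay above control in WK2, with a median of 0.28, or 0.34 without the third array, and 0 passed (limma). At an unadjusted p under 0.05, 3 (21.4%) were higher, where 17.3% of all features were. Their summed intensity was 11932 to 14555 in control, 10988 to 13237 in D1 and 14635 to 18673 in WK2. Their medians on single arrays overlapped, at -0.06, -0.24 and 0.32 in control and 0.17, 0.48 and 0.09 in WK2. The lowest of these WK2 medians was that of the third WK2 array. Myh2, a fast muscle myosin, differed by 1.16, Myl1 by 0.65 and Acta1, skeletal actin, by -0.39 (-0.22 without that array). Adipocyte markers, relevant since Cox8b and Cox7a1 are known from brown fat too, lay above control in 9 of 9 genes, with a median of 0.38, or 0.31 without the third WK2 array, and Adipoq at 1.32. Their summed intensity was 30573 to 35880 in control and 23440 to 31019 in D1. In WK2 it was 34749 and 26925 on the first and second arrays, not above the control range, and 63729 on the third. Ucp1, the marker of brown fat, lay at 0.07, and at -0.02 without the third WK2 array. No marker of either list was at 0 on any array. Their part in the result was not tested.

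The remaining complex IV genes lay on both sides of control. Cox4i1 and Cox5a lay at 0.13 and 0.07, but at -0.09 and -0.16 under quantile normalization and at 0.21 and -0.12 without the third WK2 array, and Cox5b lay at 0.49. Cox4i2 lay at -0.43 (-0.28 without the third WK2 array). Cox6b1 differed by 0.50 and its testis counterpart Cox6b2 by -0.29, or by 0.20 and -0.48 without that array. Cox7b lay at 0.30, but at -0.12 without the third WK2 array, which stood at 2025 against 846 and 811. Cox7b2 lay at 0.38, with control at 199, 107 and 214. With 1 array left out, Cox7b2 ranged down to 0.15 and Cox5b to 0.27.

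**Figure D4:**
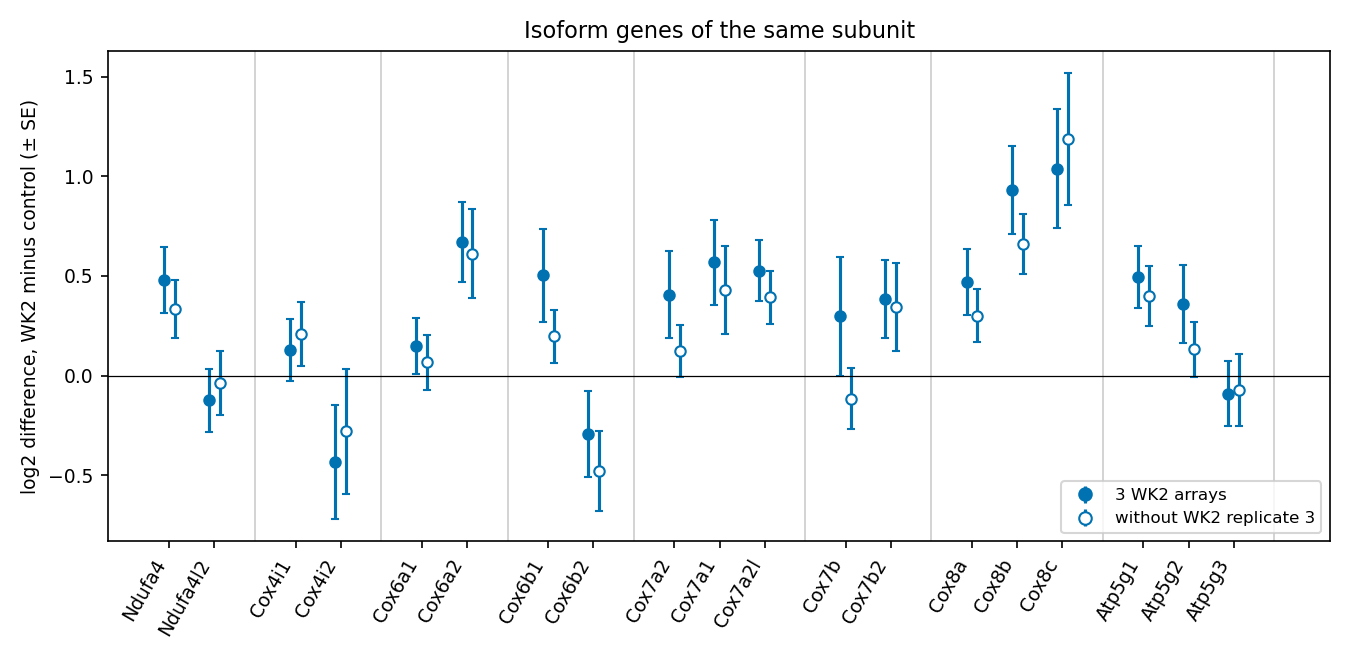
Log2 difference of WK2 minus control with its SE for the isoform genes of the same subunit, grouped between the vertical lines, with all WK2 arrays (filled) and without the third (open). Cox8b and Cox8c lie at 0.93 and 1.04, Cox8a at 0.47, and Cox4i2 and Cox6b2 lie below 0 with and without that array.

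Complex V makes ATP in its F1 head, turned by a ring of c subunits. Of its 14 genes 11 lay above control in WK2, and the exceptions were Atp5b, Atp5d and Atp5g3. Atp5d stood at 2219, 2556 and 2308 in control, 1863, 1048 and 2441 in D1, and 1355, 1152 and 927 in WK2. It was the only one of the 77 genes whose WK2 values all lay below control, while D1 spanned both groups. The difference was -1.03 ± 0.27, a 2.04-fold lower level (adjusted p = 0.0648, limma), and -0.89 without the third WK2 array. It passed with median centring (adjusted p = 0.0469), under quantile normalization (0.0484) and without the dimmest 50% of features (0.0427), and its adjusted p ranged up to 0.148 over the alternatives.

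Atp5b, the catalytic beta subunit, stood at 11536, 8934 and 12353 in control, 9302, 8.74 and 8619 in D1, and 9455, 21.4 and 11607 in WK2. Its probe was near 0 on the second D1 and second WK2 arrays and at 8619 or more elsewhere. The difference from control was -2.69 in D1 and -2.45 in WK2 (-3.72 without the third WK2 array), and -0.27 and -0.05 without those 2 arrays, a choice made after the values were seen. The alpha subunit Atp5a1 differed by 0.49 and the gamma subunit Atp5c1 by 0.26. The second control array of Atp5a1 stood at 66054 against 113557 and 112714, and its difference ranged down to 0.23 with 1 array left out. Of the c subunit genes, which encode the same mature protein, Atp5g1 stood at 22671, 21046 and 18631 in control and 27014, 27616 and 33328 in WK2. Its groups did not overlap, and the difference was 0.49 ± 0.15 (adjusted p = 0.0851, limma). Atp5g2 differed by 0.36 (0.13 without the third WK2 array) and Atp5g3 by -0.09.

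**Figure D5:**
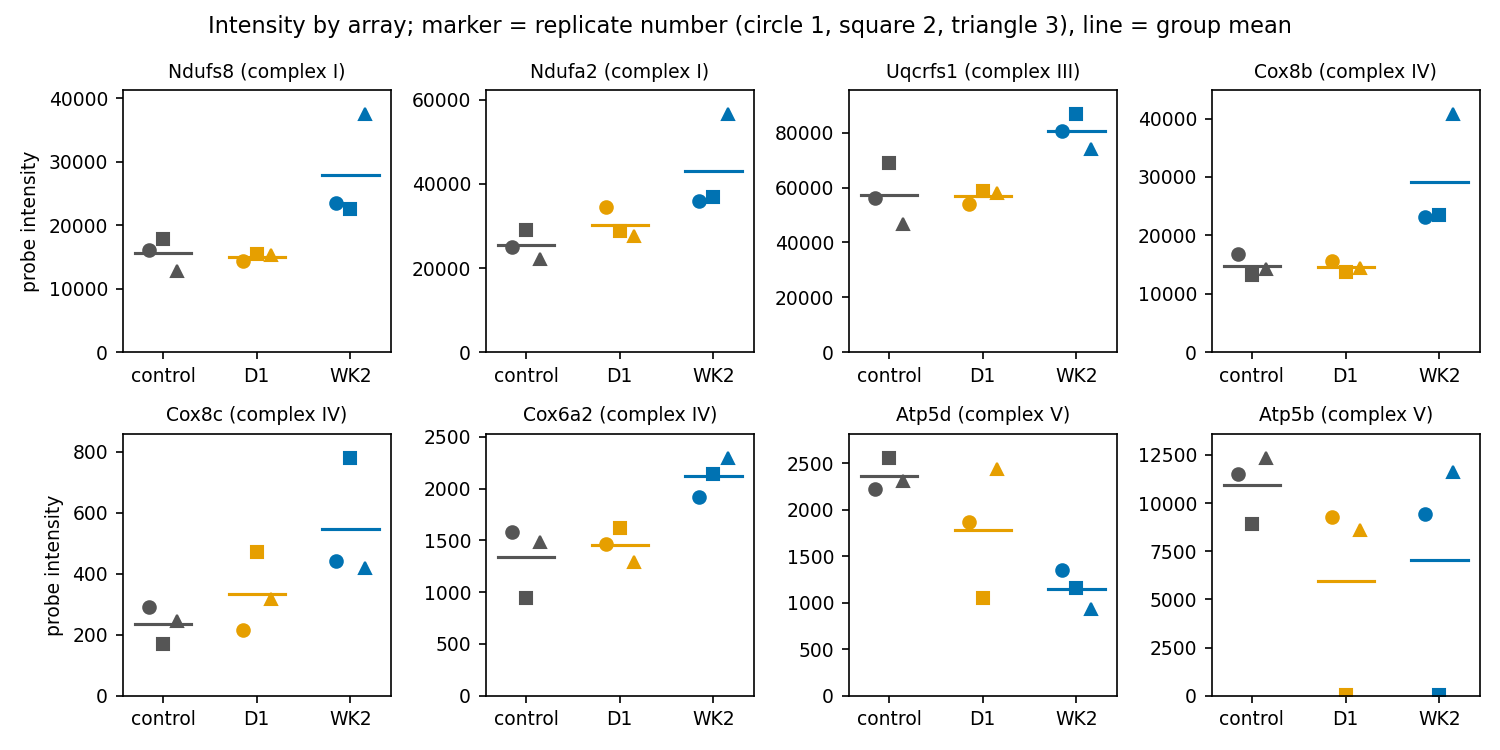
Intensity on each array for 8 subunit genes, with a line at each group mean. The WK2 values of Ndufs8, Ndufa2, Uqcrfs1, Cox8b and Cox6a2 lie above all others, those of Atp5d lie below control, and Atp5b is near 0 on the second D1 and second WK2 arrays.

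The comparison of WK2 with D1 asks how the durations differ. It shares the WK2 arrays with the comparison above, so the results are not independent. Of the 77 genes 66 lay higher in WK2 than in D1, where 61.6% of all features did, with a median of 0.34 beside 0.10 over all features. Without the third WK2 array 64 did so, beside 59.5% of all features, with a median of 0.15. The limma test called 0 of the 77, beside 0.0931% of all features, and 21 had an unadjusted p under 0.05, all higher, beside 19.2% of all features (8.96% higher and 10.2% lower). All WK2 values lay above all D1 values in 31 genes, where 18.7% of all features did. Without the third WK2 array 8 had an unadjusted p under 0.05, beside 13.4% of all features. The medians by complex were 0.41 for I, 0.29 for II, 0.43 for III, 0.35 for IV and 0.23 for V, and 0.17, 0.09, 0.14, 0.21 and 0.06 without the third WK2 array.

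The smallest adjusted p in WK2 against D1 was that of Cox8b, 0.128 (limma), with a difference of 0.94 ± 0.22, and 0.68 without the third WK2 array. Ndufs8 differed by 0.85 ± 0.21 (adjusted p = 0.137) and Ndufa9, an accessory subunit, by 0.69. Sdhd differed by 0.61, Ndufa12 by 0.54, Ndufb2 by 0.52, Uqcrfs1 by 0.50 and Atp5g1 by 0.45. Without the third WK2 array Sdhd differed by 0.37, Ndufa12 by 0.31 and Ndufb2 by 0.33. For each of these 8 genes the WK2 values lay above all D1 values. None passed.

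For the 8 subunit genes with several probes, the dimmer probes of WK2 against control mostly gave smaller differences. Ndufs4 lay at 0.59 (0.28 without the third WK2 array) on its brighter and 0.17 on its dimmer probe, and Ndufa11 at 0.17 (-0.11 without that array) and -0.09. Ndufv3, an accessory subunit, lay at 0.32 (0.12 without that array) on its brightest probe and at 0.60 and 0.14 on the others. Cox6a2 lay at 0.67 and 0.32 and Cox6b2 at -0.29 and -0.07.

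Other genes of the pathway were read from lists chosen by function, and in none of these 6 lists did a gene pass in any comparison (limma). In WK2 against control the shares over all features, as given above, are 62.7% above control, and 17.3% higher and 12.4% lower at an unadjusted p under 0.05. Of 44 measured assembly factors 32, or 72.7%, lay above control in WK2, with a median of 0.24 (0.06 without the third WK2 array), 7 (15.9%) higher and 3 (6.82%) lower at an unadjusted p under 0.05, both shares below those of all features. Ndufaf8 differed by 0.63, the copper carrier Cox17 by 0.56, Atpaf1 by 1.23 and Ecsit by -0.46, with Cox17 at 0.37 and Ecsit at -0.30 without that array. Of 7 electron carriers and subunits outside the symbol rule, 5 lay above, with a median of 0.31, or 0.08 without that array, and 2 higher and 1 lower at an unadjusted p under 0.05. Atpif1, the inhibitor of the ATP synthase, differed by 0.49 and Etfa by 0.46 (0.28 and 0.30 without that array), while the complex III subunit Cyc1 lay at -0.33 and Dmac2 at -0.41. Of 9 carriers and porins 6 lay above, with a median of 0.07, or -0.02 without the third WK2 array, and 0 at an unadjusted p under 0.05. The porin Vdac3 lay at 0.46 (0.06 without that array) and the carrier Slc25a11 at -0.30.

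Of 17 tricarboxylic acid cycle genes 11, or 64.7%, lay above control in WK2, close to the share of all features, with a median of 0.23 (0.07 without the third WK2 array) and 4 (23.5%) higher at an unadjusted p under 0.05. Fumarase Fh1 stood at 18083 ± 1957 (SD, n = 3) in control and 27073 ± 2930 in WK2 (log2 0.58, adjusted p = 0.0613, limma), and Dld, a subunit of the 2-oxoacid dehydrogenases, differed by 1.06 (0.64 without that array). Of 14 glycolysis genes 5 lay above, with a median of -0.19 (-0.04 without that array), 2 higher and 3 lower at an unadjusted p under 0.05. The enolase of neurons, Eno2, lay at -0.78, Pfkm at -0.61 (-0.36 without that array), lactate dehydrogenase Ldha at 0.59 and Tpi1 at 0.52 (0.34). Of 17 regulators of mitochondrial biogenesis 6 lay above, with a median of -0.13 (-0.12 without that array), 2 higher and 2 lower at an unadjusted p under 0.05. Esrra, a nuclear receptor that binds respiratory gene promoters, stood at 5655 ± 493 in control and 3161 ± 667 in WK2 (log2 -0.85, adjusted p = 0.0522, limma), and Ssbp1, which binds mitochondrial DNA, differed by 0.73 (0.0551). The coactivator gene Ppargc1a lay at 0.00, Nrf1 at -0.22 and the mitochondrial transcription factor Tfam at -0.06, or at 0.12, -0.19 and -0.18 without the third WK2 array. In D1 the medians of the 6 lists, in the order given, were -0.04, -0.06, -0.08, 0.02, 0.02 and 0.09.

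Markers of cell types with many mitochondria were set beside the subunit genes. Of 10 markers of respiratory multiciliated cells 9 lay above control in WK2, with a median of 0.51 and 0.47 without the third array, and medians of 0.27, 0.43 and 0.66 on the 3 WK2 arrays. Their summed intensity was 131182 to 156325 in control, 134518 to 151144 in D1 and 151037 to 194307 in WK2. Spag6l differed by 0.74 (adjusted p = 0.0591, limma) and Ccdc39 by 0.62, while Foxj1, the regulator of these cells, lay at -0.48 (-0.16 without the third WK2 array). Sustentacular cell markers had a median of 0.26 (0.11 without the third WK2 array), with 6 of 8 above. Their sums were 1054360 to 1311200 in control, 1291490 to 1513010 in D1 and 1511210 to 1693630 in WK2, with D1 and WK2 overlapping. Their medians on single arrays were 0.09, -0.04 and -0.07 in control and 0.27, -0.01 and 0.54 in WK2, so the second WK2 array lay below the first control. Mature olfactory neuron markers had a median of 0.18 (0.11 without the third WK2 array), with 10 of 15 above, though the samples were picked on one of them. Their sums were 1716420 to 1916190 in control, 1567040 to 1989510 in D1 and 1954360 to 2128670 in WK2, and D1 overlapped both. None of these passed (limma). At an unadjusted p under 0.05, 5 of 10 ciliated and 3 of 8 sustentacular markers were higher (50% and 37.5%) and 0 were lower. Of the 15 neuron markers 2 (13.3%) were higher and 3 (20%) lower. Of all features 17.3% were higher and 12.4% lower. No marker was at 0 on any array, and their part in the result was not tested.

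Pericyte and smooth muscle markers had a median of 0.10, but -0.12 without the third WK2 array, with 7 of 11 above and Notch3 called lower (log2 -0.79, adjusted p = 0.0499, limma). Neutrophil markers had a median of 0.64 (0.68 without that array), with 8 of 11 above, and 0.72 in D1, where the subunit genes lay at 0.03. Their medians on single arrays overlapped widely, at -0.98, 1.33 and -0.03 in control. They were 0.59, 1.72 and -0.19 in D1 and 1.04, 0.30 and 0.19 in WK2. Erythroid markers had a median of 0.26 (0.52 without the third WK2 array), with 4 of 6 above. Single arrays overlapped here too, at -0.74, 0.98 and -0.11 in control and 0.87, 0.07 and -0.09 in WK2.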

How the data were processed

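Trizol-extracted total RNA had an integrity number of 7 or more, and after amplification of 1 µg a Cy5 label was added, per the labels' protocols. The authors deposited 1 table of probe intensity values on a linear scale for 9 arrays of 1 colour; which scanner, scaling target or background step they used is not stated in the labels. Probe symbols are those of the platform annotation, brought up to date by gene ID with the RefSeq gene list of GRCm38.p6, which held 21825 of them; 21876 probes had 1 symbol and 4547 none. Array medians lay within 0.258 on the log2 scale, under the limit of 0.5 set for using values as deposited. Values were tested as log2(intensity + 50), which understates folds of dim probes, in 1 linear model of all 9 arrays with limma 3.58.1 in R 4.3.3, with Benjamini-Hochberg adjustment over 23631 features per comparison, called at 0.05. The number of arrays limits the precision. An exact permutation test of 3 against 3 cannot go below 0.1. The test was checked on simulated data with independent noise per gene. The simulation held no shift of a whole array, so it does not cover an array that stands apart like the third of WK2.

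The members and gene lists were chosen with earlier results of these data known. Named genes were any that passed, the 8 smallest p per comparison, the extremes of each complex, the core subunits, the isoform sets, and up to 4 genes of smallest p per pathway list; others were chosen after their values were seen. Lists covered assembly factors, electron carriers, carriers and porins, the tricarboxylic acid cycle, glycolysis, biogenesis regulators and markers of mature olfactory neurons, sustentacular, multiciliated, muscle, fat, pericyte, neutrophil and erythroid cells. Promoter letters came from RefSeq windows. Alternatives were 3 normalizations, 2 filters, the mean of probes, 2 pseudocounts, moderation, the groups fitted, a replicate block, array weights and leaving out each array.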

Additional observations from a re-analysis of the deposited data

How the results depend on the processing

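The count of subunit genes called in WK2 against control, 0, became 8 with array weights (Ndufs8, Cox8c, Ndufa9, Ndufb8, Ndufa2, Ndufb6, Cox8b and Uqcrfs1), 4 under quantile normalization and 4 without the dimmest 50% of features (Ndufs8, Atp5d, Ndufa2 and Cox8b in each), 1 with cyclic loess (Cox8b), 1 with median centring (Atp5d) and 0 to 1 with 1 array left out (Cox8b without WK2 replicate 1); the cause was not tested. It was 0 in the other settings, and 0 in all 21 for the other comparisons. Over all 23631 features the count in WK2 against control, 380, ranged from 0 with the 2 groups alone to 2738 with array weights. It was 1 to 953 with 1 array left out. The 8 of 77 subunit genes called with array weights thus stood beside a similar share of all features, 2738 of 23631. The medians of the 77 genes ranged over these settings from -0.02 to 0.07 for D1 against control, 0.18 to 0.46 for WK2 against control and 0.15 to 0.44 for WK2 against D1. With the replicate number as a block the median in WK2 against control was 0.38, 0 subunit genes were called (smallest adjusted p 0.105, limma) and 1 feature in all; same-numbered arrays had correlations of deviations from -0.28 to 0.14, 2 of 9 arrays matched their own number best, and the numbers were not taken as pairs.

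Single genes that did not pass changed sign in some settings, and the cause was not tested. In WK2 against control, array weights gave -0.0317 for Cox7b, 0.11 for Ndufs3, 0.17 for Ndufs7, -0.0179 for Sdhb and 0.10 for Sdhc. Quantile normalization gave -0.0866 for Cox4i1, -0.16 for Cox5a, -0.11 for Cox6a1 and -0.0266 for Sdhb. Cyclic loess gave -0.0155 for Cox4i1, -0.0782 for Cox5a and -0.0723 for Cox6a1, and median centring -0.0305 for Cox5a. With 1 array left out Cox5a ranged from -0.12 to 0.31, Cox7b from -0.12 to 0.52, Ndufs7 from -0.16 to 0.10, Sdhb from -0.15 to 0.35 and Sdhc from -0.40 to 0.0544. In D1 against control, Sdha lay at -0.0217 with median centring and ranged from -0.0947 to 0.18 with 1 array left out, and Uqcr11 from -0.0338 to 0.265.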
